A study of Bos taurus with 6 samples.

Results

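This account concerns 45 chaperone genes of bovine cumulus cells, of 9155 genes that the array annotation names by a single symbol. They are the J-domain proteins of the DNAJ family other than DNAJB1, DNAJB9, DNAJB11 and DNAJC3, the BAG proteins BAG1 to BAG6, the subunits of the cytosolic chaperonin CCT, and a set of HSP70, HSP90 and co-chaperone genes with the heat shock factors HSF1 and HSF2. Members were chosen by gene symbol, and each gene was read from the probe set with the highest mean over the 6 arrays. The members have 65 probe sets in all, and 15 of the genes have more than 1. The rule also names TCP1 and CCT7, for which no probe set with a single symbol was found, so they were not analysed here. The probe set of 1 member, DNAJC6, had a mean below the lower quartile of all probe set means (3.83), and no filter on low values was used.

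Cumulus cells are the somatic cells around the oocyte. They were taken from complexes in slaughterhouse ovaries of Bos indicus x Bos taurus crossbred cows and stripped off by pipetting, and RNA from pools of cells was hybridised to Affymetrix arrays. The 3 large-follicle arrays hold complexes of follicles that measured 8 mm or more, which the labels call competent. The 3 small-follicle arrays hold complexes of follicles that measured 1 to 3 mm, which the labels call incompetent. Both groups were limited to complexes with an even, granulated cytoplasm and compact layers of cumulus cells. The labels give neither the age of the cows nor how many cows or complexes stand behind a pool, so p-values measure the spread between pools. A pool with fewer cells of a type and one with less RNA per cell cannot be told apart. The question is which transcripts differ with follicle size, the study's stand-in for the capacity of the oocyte to develop.

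HSP70 chaperones bind and release unfolded stretches of other proteins in a cycle driven by ATP. J-domain proteins bring substrates to HSP70 and trigger the hydrolysis of ATP, and BAG proteins promote the exchange of the nucleotide, which frees the substrate. CCT is a barrel of related subunits in the cytosol that folds actin and tubulin, and HSP90 with its co-chaperones finishes the folding of kinases and steroid receptors. Cumulus and granulosa cells depend on steroid hormone receptors and on a large cytoskeletal network that reaches the oocyte.

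The arrays were alike in scale, with medians of 5.64 to 5.68 log2 units, and their number limits the precision. Of 10 markers of granulosa and cumulus cells all were measured, and 6 of them rose and 1 fell in large-follicle arrays. These are 60% and 10%, against 7.08% and 8.30% of all genes. Their mean signal was 10.24 to 10.34 in large-follicle arrays and 9.64 to 9.81 in small-follicle arrays. Of 9 leukocyte markers 2 rose (22.2%, against 7.08% of all genes) and 0 fell. Their mean signals were 4.55 to 5.75 in large-follicle arrays and 4.22 to 4.90 in small-follicle arrays. All 9 leukocyte markers were higher in sign in large-follicle arrays, by a median of 0.62, between 0.08 for PTPRC, which was dim (3.57 in large-follicle and 3.49 in small-follicle arrays), and 1.02 for CD14. The mean of 6 oocyte markers was 4.06 to 4.13 in large-follicle arrays and 3.93 to 4.22 in small-follicle arrays, and by limma 0 of them passed (0 at an unadjusted p under 0.05). Of 4 theca, 5 endothelial and 5 stromal markers 0 rose and 1 fell, the endothelial gene TEK. At an unadjusted p under 0.05, 1 theca, 1 endothelial and 2 stromal markers were higher, and 1 endothelial marker was lower. PDGFRA, a stromal marker, was higher by 1.37 (adjusted p = 0.0683 by limma), while 3 of the 5 stromal markers were lower in sign. Mean signals of the stromal markers were 7.02 to 7.27 in large-follicle arrays and 6.47 to 7.27 in small-follicle arrays. The part of leukocyte, theca, endothelial or stromal RNA in the differences below was not tested. A sign of RNA quality, the mean 3'-minus-5' signal of 6 bovine control transcripts, was 1.98 ± 0.19 in large-follicle arrays and 2.46 ± 0.27 in small-follicle arrays (SD, n = 3 each), which differ by -0.48 (p = 0.1 in a 2-sided exact permutation test, the lowest value possible with 3 arrays a group). This index moves with the follicle groups. For members whose call it changes, results are given with and without it as a model term. The marker genes, PDCD5 and HSPD1 are given without it only.

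Most of the chaperone genes differed little between follicle sizes. Among the 45 genes 2 rose in large-follicle arrays, BAG5 and DNAJC12, and 6 fell, DNAJA1, DNAJA4, DNAJC27, BAG3, HSPA9 and CACYBP, by limma at an adjusted p under 0.05 (Benjamini-Hochberg, all 24016 probe sets). With the 3'-minus-5' index in the model 0 of the 45 passed by limma, with 1 higher and 3 lower at an unadjusted p under 0.05. That term removed most calls on the array: 99 of all 24016 probe sets rose and 116 fell with it, against 1374 and 1720 without it. Without the index the share of members that passed was 17.8%, against 15.4% of all genes read the same way. That total lies near the background. Over all probe sets, several per gene and those without a symbol included, 5.72% rose and 7.16% fell, 12.9% in all. By direction, 4.44% of the members rose, against 7.08% of all genes, and 13.3% fell, against 8.30% of all genes. The groups did not overlap in 18 members, 40% against 36.5% of all genes, of which 3 were higher (6.67% against 17.6%) and 15 lower (33.3% against 18.9%) in large-follicle arrays. The difference exceeded 2-fold in 1 member, BAG5, and the median size over the members was 0.16 log2 units, against 0.18 over all genes. In sign, 33 of 45 members (73.3%) were lower in large-follicle arrays, against 48.6% of all genes, and the median difference was -0.08 against 0.01. The count of members lower in sign was 27 with the 3'-minus-5' index in the model, 29 with cyclic loess and 34 with median centring. The members were picked with results of these arrays known, and no test of the list was made.

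**Figure D1:**
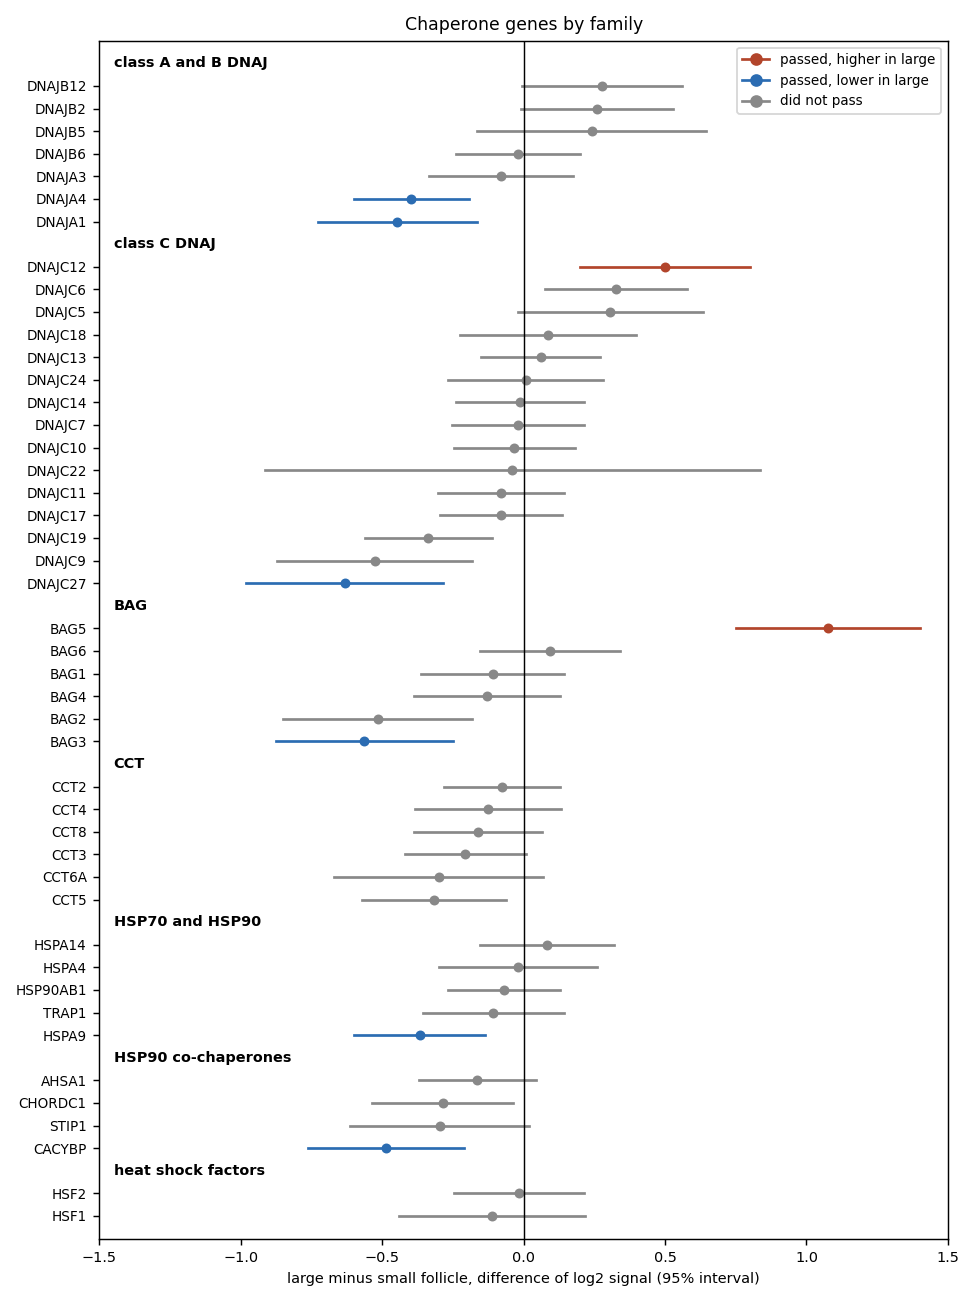
Difference of log2 signal, large minus small follicle, for each of the 45 genes (points) with its 95% interval from limma (lines), ordered within families; n = 3 arrays in each group. BAG5 lies alone at the right, at 1.08, and all 6 CCT subunits lie left of 0 with none past the test.

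The BAG family held the member with the largest difference in either direction. BAG5, which carries several BAG domains and in human cells restrains the ubiquitin ligases parkin and CHIP, read 6.17, 5.89 and 6.11 in large-follicle arrays, against 4.71, 5.06 and 5.17 in small-follicle arrays. Every large-follicle array lay above every small-follicle array. The difference was 1.08 ± 0.14 (SE), or 2.11-fold, with an adjusted p = 0.00325 by limma. The mean of this probe set over the 6 arrays was 5.52, below the median of all probe set means (5.67). A second, dimmer probe set of BAG5 read 4.61, 4.56 and 4.61 in large-follicle arrays, against 4.23, 4.27 and 4.38 in small-follicle arrays, again without overlap, with a difference of 0.30 and an adjusted p = 0.0691 by limma. Both probe sets point the same way, while only the brighter one passed and the size of the difference depends on the probe set. The call held without each of the 6 arrays in turn, at 0.94 to 1.17. With the 3'-minus-5' index in the model the difference was 0.96 and did not pass (adjusted p = 0.0954).

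BAG3, which hands substrates of HSP70 to autophagy and works with small heat shock proteins, read 8.94, 9.00 and 9.09 in large-follicle arrays, against 9.75, 9.69 and 9.28 in small-follicle arrays. It fell by 0.56 ± 0.14 (SE), 1.48-fold, with an adjusted p = 0.0316 by limma. Its difference with the 3'-minus-5' index in the model was -0.28 and did not pass. The groups did not overlap, and small-follicle replicate 3 lay nearest to the large-follicle arrays. BAG2, an inhibitor of the ubiquitin ligase CHIP, read 8.06, 7.61 and 7.69 in large-follicle arrays, against 8.35, 8.45 and 8.11 in small-follicle arrays, so that large-follicle replicate 1 almost touched small-follicle replicate 3. Its difference was -0.52 ± 0.15 with an adjusted p = 0.0545 by limma, just outside the threshold, and its dimmer probe set gave -0.05. Over all alternative fits the difference of BAG2 ran between -0.65 and -0.16. The other members did not pass: BAG1, a partner of BCL2 and the proteasome, differed by -0.11 (95% interval -0.36 to 0.14). BAG4, which binds the death domains of tumour necrosis factor receptors, differed by -0.13 (-0.39 to 0.13), and by 0.08 with the 3'-minus-5' index in the model. BAG6, which shields tail-anchored and misfolded membrane proteins, differed by 0.09 (-0.15 to 0.34) at its brightest probe set, while the other 3 gave 0.01 to 0.35. Counted over the family, 1 of 6 rose and 1 fell (16.7% each, against 7.08% and 8.30% of all genes), 4 did not pass, and the median difference was -0.12.

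**Figure D2:**
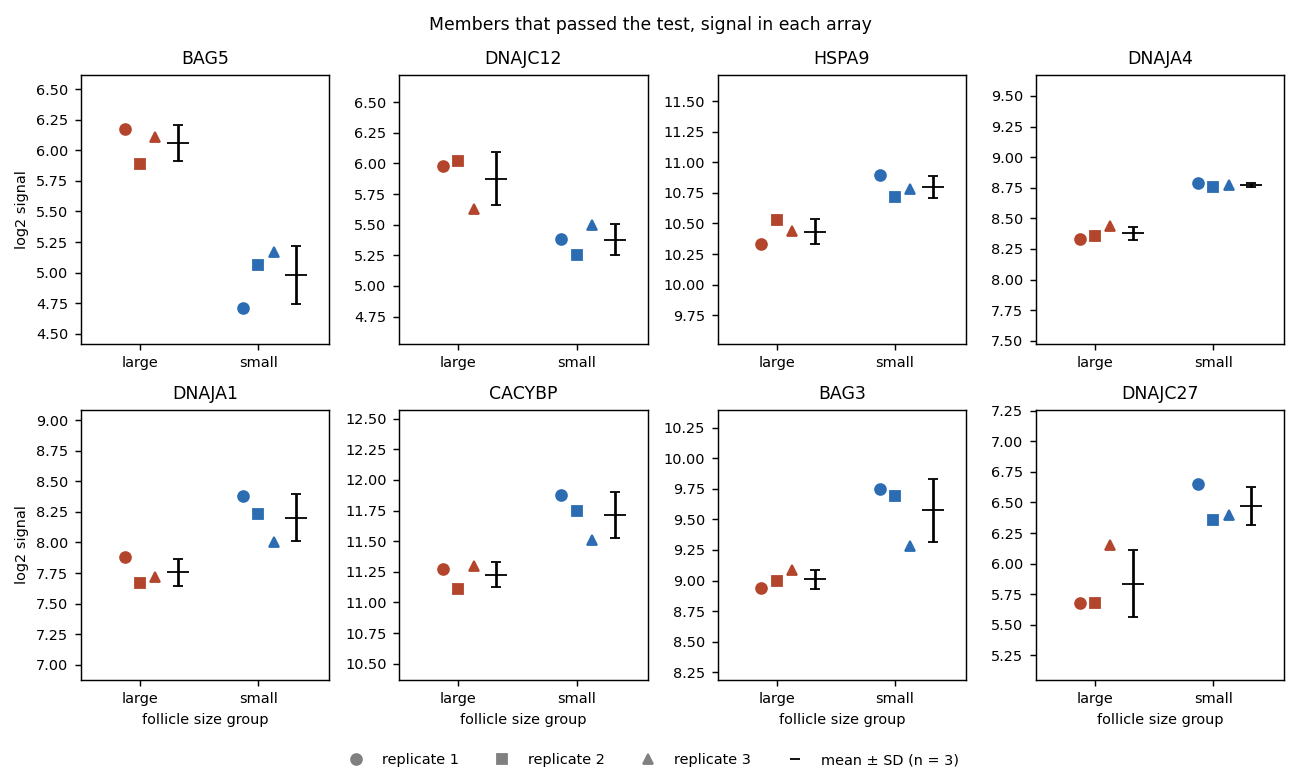
Log2 signal in each array for the 8 genes that passed the test, with large-follicle arrays left of small-follicle arrays; markers give the replicate, bars the mean and SD (n = 3), and every panel spans the same number of log2 units. The groups overlap in none of the 8 genes, and BAG5 shows the widest gap. The 8 genes were picked by the test on these same arrays, so their separation is no further support.

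Among the J-domain proteins of classes A and B, which resemble bacterial DnaJ most closely, both genes that passed were of class A and both fell. DNAJA4, a cytosolic partner of HSP70, read 8.33, 8.36 and 8.44 in large-follicle arrays, against 8.79, 8.76 and 8.77 in small-follicle arrays. It fell by 0.40 ± 0.09 (SE), 1.32-fold, with an adjusted p = 0.0231 by limma, and the small-follicle arrays were almost equal. With the 3'-minus-5' index in the model the difference of DNAJA4 was -0.39 and did not pass (adjusted p = 0.19 by limma). DNAJA1, a cytosolic co-chaperone of HSP70, read 7.88, 7.67 and 7.72 in large-follicle arrays, against 8.38, 8.23 and 8.00 in small-follicle arrays, again with no overlap. It fell by 0.45 ± 0.12, 1.36-fold, with an adjusted p = 0.0488 by limma, while the difference with the 3'-minus-5' index in the model was -0.14 and did not pass. DNAJA3, the mitochondrial member of the class, differed by -0.08 (95% interval -0.33 to 0.17) and did not pass.

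No class B gene passed by the probe set with the highest mean. DNAJB6, a suppressor of aggregation, read 9.89, 9.86 and 9.75 in large-follicle arrays and 9.94, 9.81 and 9.81 in small-follicle arrays, a difference of -0.02 (-0.24 to 0.20). DNAJB12, which sits in the membrane of the endoplasmic reticulum and helps degrade membrane proteins, differed by 0.28 (adjusted p = 0.194 by limma) at its brightest probe set. A second probe set of DNAJB12 read 7.66, 7.53 and 7.67 in large-follicle arrays, against 7.23, 7.34 and 7.23 in small-follicle arrays and passed at 0.35 (adjusted p = 0.0438), and the last of its 3 probe sets gave 0.19, with the same sign. Over all alternative fits the difference of DNAJB12 ran between 0.03 and 0.36. DNAJB2 differed by 0.26 (-0.01 to 0.53). Of the 7 genes of these classes, 0 rose, 2 fell (28.6%, against 8.30% of all genes) and 5 did not pass, and the median difference was -0.02.

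Class C gathers proteins that share little but the J domain. Of 15 genes 1 rose, 1 fell and 13 did not pass, so that 13.3% passed, near the 15.4% of all genes, with a median difference of -0.02 and a median size of 0.08. DNAJC12, a partner of the hydroxylases of aromatic amino acids, read 5.98, 6.02 and 5.63 in large-follicle arrays, against 5.38, 5.25 and 5.50 in small-follicle arrays. It rose by 0.50 ± 0.13 (SE), 1.41-fold, with an adjusted p = 0.0411 by limma, and large-follicle replicate 3 stood below the other large-follicle arrays. The mean of DNAJC12 over the 6 arrays was 5.63, just below the median of all probe set means (5.67). The difference of DNAJC12 was 0.35 with the 3'-minus-5' index in the model (adjusted p = 0.389 by limma) and did not pass. DNAJC27, a small GTPase with a J domain, read 5.68, 5.68 and 6.15 in large-follicle arrays, against 6.65, 6.36 and 6.40 in small-follicle arrays. It fell by 0.63 ± 0.15, 1.55-fold, with an adjusted p = 0.0303 by limma, and here too large-follicle replicate 3 lay closest to the small-follicle arrays. With the 3'-minus-5' index in the model the difference of DNAJC27 was -0.48 and did not pass (adjusted p = 0.33 by limma).

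Several class C genes lay close to the threshold. DNAJC19, part of the motor that pulls proteins into mitochondria, read 9.38, 9.53 and 9.55 in large-follicle arrays, against 9.85, 9.88 and 9.74 in small-follicle arrays. Its difference was -0.34 ± 0.10 with an adjusted p = 0.0584 by limma, while its dim second probe set gave -0.79 and passed (adjusted p = 0.0112). DNAJC9, a J-domain protein that also escorts histones, read 8.44, 8.29 and 8.76 in large-follicle arrays, against 9.10, 9.17 and 8.80 in small-follicle arrays, a difference of -0.53 ± 0.15 with an adjusted p = 0.0563 by limma. Over all alternative fits the difference of DNAJC9 ran between -0.77 and -0.22. DNAJC6, an auxilin that strips clathrin from vesicles, differed by 0.33 ± 0.11 (adjusted p = 0.094 by limma) at a very low signal, which averaged 3.44 in large-follicle arrays and 3.11 in small-follicle arrays. The groups of these 3 genes did not overlap, although none passed by the probe set with the highest mean. Over the whole class the groups did not overlap in 33.3% of the genes, near the 36.5% of all genes. DNAJC9 and DNAJC6 are named here after their values were seen, as are DNAJC5 and DNAJC22.

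Of the remaining class C genes DNAJC5, a co-chaperone of synaptic and secretory vesicles, had the largest difference, 0.31 (95% interval -0.02 to 0.63), which turned to -0.11 with the 3'-minus-5' index in the model. DNAJC10, a reductase of the endoplasmic reticulum, differed by -0.03 (95% interval -0.25 to 0.18), and its other probe sets gave -0.33 and 0.06. DNAJC7, which binds HSP70 and HSP90 through repeats, differed by -0.02 (-0.25 to 0.21). DNAJC22 read 5.43, 5.72 and 5.77 in large-follicle arrays, against 4.65, 6.02 and 6.37 in small-follicle arrays, which spread widely, so its interval of -0.92 to 0.84 leaves the difference of -0.04 poorly determined. The 13 genes of the class that did not pass ranged between -0.53 and 0.33.

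**Figure D3:**
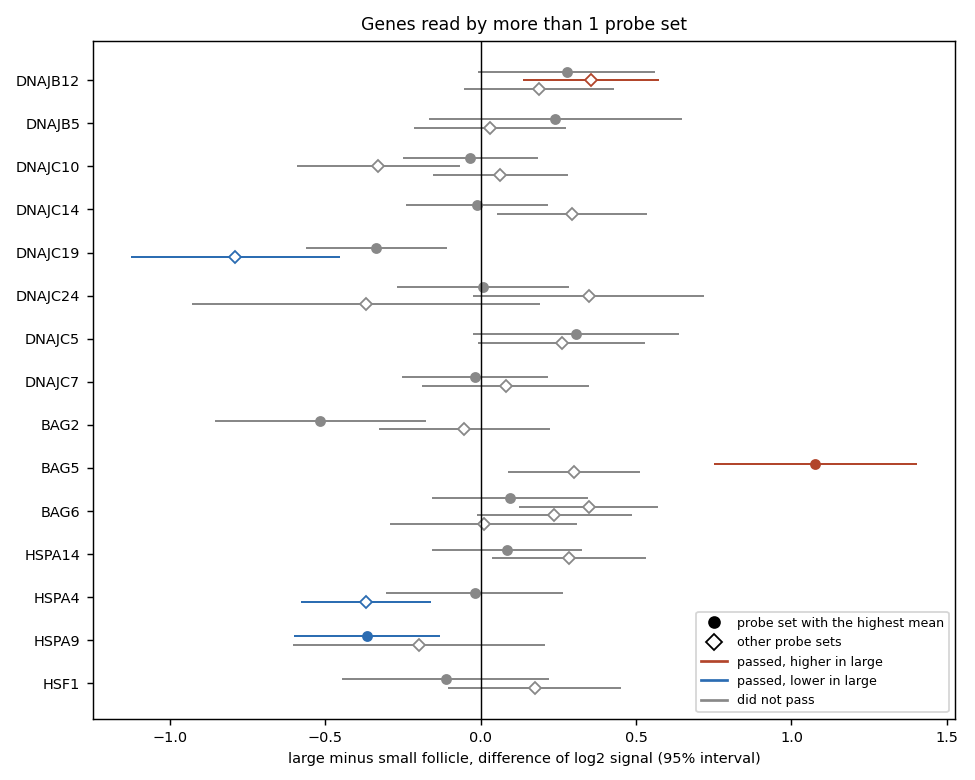
Difference of log2 signal, large minus small follicle, with its 95% interval from limma, for every probe set of the 15 genes that have more than 1; filled circles mark the probe set with the highest mean, open diamonds the others. DNAJB12, DNAJC19 and HSPA4 each have a dimmer probe set that passed where the chosen one did not.

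The chaperonin CCT is a stack of paired rings in which each subunit takes a fixed place. None of its 6 measured subunits passed by limma after adjustment, against 15.4% of all genes, which is too few subunits to tell apart from that share. At an unadjusted p under 0.05, 1 subunit was lower, as were 1525 of all 9155 genes. CCT5 read 10.27, 10.27 and 10.50 in large-follicle arrays, against 10.67, 10.78 and 10.54 in small-follicle arrays, a difference of -0.32 (95% interval -0.57 to -0.06, adjusted p = 0.108 by limma). CCT3 read 10.87, 10.95 and 10.97 in large-follicle arrays, against 11.10, 11.08 and 11.23 in small-follicle arrays, a difference of -0.21 (-0.42 to 0.01). CCT8 read 11.37, 11.23 and 11.43 in large-follicle arrays, against 11.58, 11.49 and 11.44 in small-follicle arrays, a difference of -0.16 (-0.39 to 0.07). In these 3 subunits the groups did not overlap, 50% of the family, against 36.5% of all genes without overlap in either direction.

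The other 3 subunits overlapped between follicle sizes. CCT6A read 10.58, 10.34 and 10.13 in large-follicle arrays and 10.75, 10.84 and 10.36 in small-follicle arrays, a difference of -0.30 (-0.67 to 0.07). CCT4 differed by -0.13 (-0.38 to 0.13) and CCT2 by -0.08 (-0.28 to 0.13). All 6 subunits were lower in sign in large-follicle arrays, against 48.6% of all genes, with a median difference of -0.18. Every interval lay within 1 log2 unit of 0, so a 2-fold difference falls outside all of them. With the 3'-minus-5' index in the model CCT6A turned to 0.05, and the others ranged between -0.33 for CCT3 and -0.004 for CCT4.

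Among the HSP70 and HSP90 proteins, HSPA9, the HSP70 of mitochondria, was the 1 gene that passed. It read 10.33, 10.53 and 10.44 in large-follicle arrays, against 10.90, 10.72 and 10.78 in small-follicle arrays, and fell by 0.37 ± 0.10 (SE), 1.29-fold, with an adjusted p = 0.0492 by limma. The groups did not overlap, and the dim second probe set gave -0.20 and did not pass. With the 3'-minus-5' index in the model the difference of HSPA9 was -0.40 and did not pass (adjusted p = 0.235 by limma). HSPA4, a nucleotide exchange factor of the HSP110 type, gave 2 answers. Its brighter probe set read 9.55, 9.77 and 9.72 in large-follicle arrays, against 9.67, 9.90 and 9.53 in small-follicle arrays, a difference of -0.02 (-0.30 to 0.26). The dimmer one read 8.56, 8.58 and 8.65 in large-follicle arrays, against 8.96, 9.02 and 8.92 in small-follicle arrays and passed at -0.37 (adjusted p = 0.0311 by limma).

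HSP90AB1, the constitutive cytosolic HSP90, read 13.22, 13.22 and 13.28 in large-follicle arrays, against 13.31, 13.32 and 13.30 in small-follicle arrays. The groups did not overlap, but the difference was only -0.07 (95% interval -0.27 to 0.13), and the ID of the probe set marks it as one that can bind several transcripts. TRAP1, the mitochondrial HSP90, differed by -0.11 (-0.36 to 0.14), and HSPA14, a ribosome-associated HSP70, by 0.08 (-0.15 to 0.32). The dimmer probe set of HSPA14 gave 0.28 (0.04 to 0.53) and did not pass (adjusted p = 0.129 by limma). Over the 5 genes the median difference was -0.07, with 0 that rose, 1 that fell and 4 that did not pass, 20% against 15.4% of all genes.

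The 4 HSP90 co-chaperones were lower in sign in large-follicle arrays, against 48.6% of all genes, while 16 further genes that act with HSP90 split into 8 higher and 8 lower. CACYBP, a relative of SGT1 that binds calcyclin and the ubiquitin ligase adaptor SIAH1, read 11.27, 11.11 and 11.30 in large-follicle arrays, against 11.88, 11.75 and 11.51 in small-follicle arrays. It fell by 0.49 ± 0.12 (SE), 1.40-fold, with an adjusted p = 0.0342 by limma, and the groups did not overlap. Its difference was -0.19 and did not pass with the 3'-minus-5' index in the model. STIP1, the adaptor that links HSP70 to HSP90, read 9.75, 9.57 and 9.93 in large-follicle arrays, against 10.21, 10.11 and 9.82 in small-follicle arrays, with large-follicle replicate 3 above small-follicle replicate 3, and differed by -0.30 (95% interval -0.61 to 0.02). CHORDC1, a partner of the ATPase domain of HSP90, differed by -0.29 (-0.53 to -0.04, adjusted p = 0.131 by limma), and AHSA1, which speeds up that ATPase, by -0.16 (-0.37 to 0.05). STIP1 turned to 0.04 with that index in the model. The median of the 4 genes was -0.29, with 0 that rose, 1 that fell and 3 that did not pass, 25% against 15.4% of all genes.

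HSF1 and HSF2 bind heat shock elements and switch on many chaperone genes, and HSF1 is controlled mostly at the level of the protein and less through its transcript. HSF1 read 8.07, 7.82 and 8.12 in large-follicle arrays and 8.31, 8.19 and 7.85 in small-follicle arrays, a difference of -0.11 (95% interval -0.44 to 0.22). HSF1 turned to 0.29 with the 3'-minus-5' index in the model, and its dimmer probe set gave 0.17. HSF2 read 9.80, 9.94 and 9.70 in large-follicle arrays, against 9.78, 9.83 and 9.88 in small-follicle arrays, a difference of -0.02 (-0.25 to 0.21). The groups overlapped in both genes, and neither passed by limma (0 of 2 at an unadjusted p under 0.05 as well), against 15.4% of all genes that passed.

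**Figure D4:**
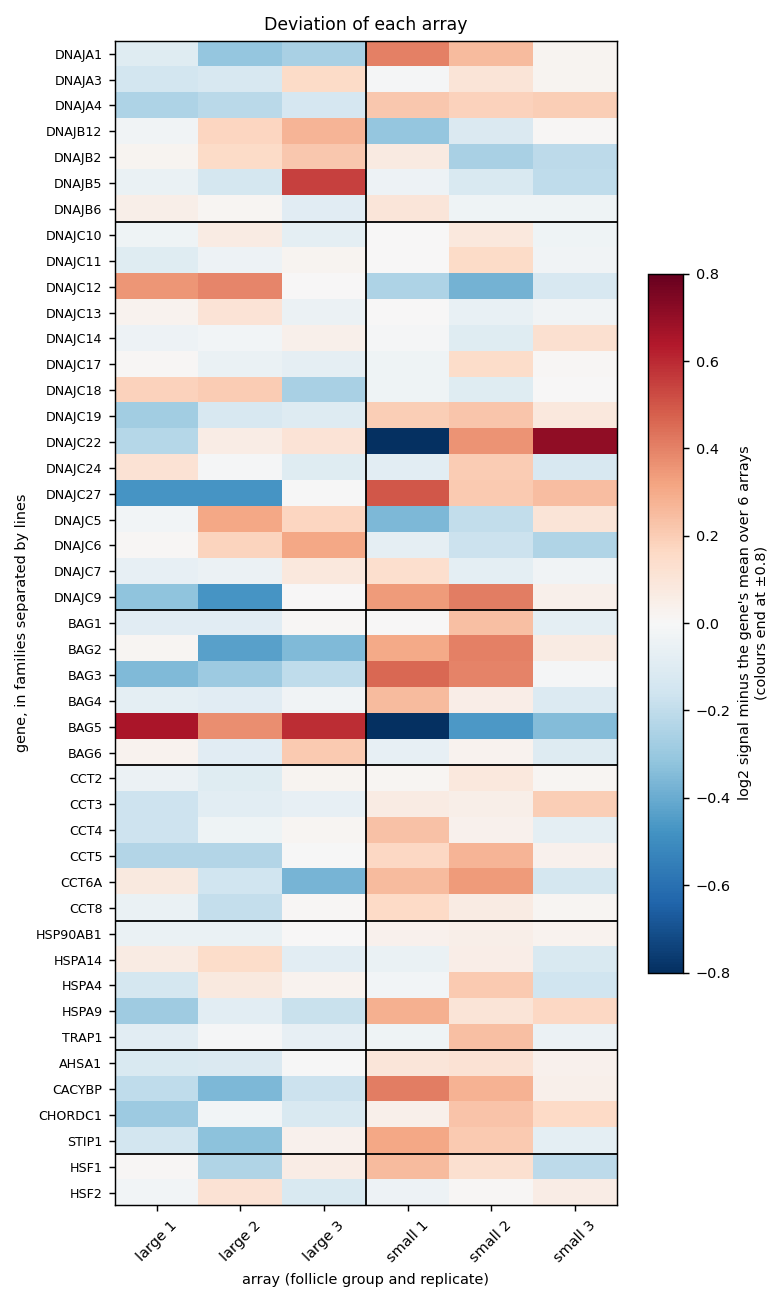
Log2 signal of each of the 45 genes in each array minus the gene's mean over the 6 arrays, with large-follicle arrays left of the vertical line and small-follicle arrays right of it, and families between horizontal lines. The co-chaperone and CCT rows are mostly below their mean in large 1 and large 2 and above it in small 1 and small 2, and many are paler in large 3 and small 3.

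On average over these genes the replicate 3 arrays of the 2 groups were nearly equal. Averaged over the 45 members, the deviation from each gene's mean was -0.07, -0.06 and -0.0003 in large-follicle arrays 1 to 3, against 0.05, 0.09 and -0.004 in small-follicle arrays 1 to 3. For the HSP90 co-chaperones it was -0.19, -0.21 and -0.07 in large-follicle arrays, against 0.21, 0.21 and 0.04 in small-follicle arrays. For CCT it was -0.10, -0.13 and -0.07 in large-follicle arrays, against 0.15, 0.14 and 0.01 in small-follicle arrays. In the BAG family it was 0.03, -0.10 and 0.04 in large-follicle arrays, against 0.02, 0.11 and -0.10 in small-follicle arrays, a family that holds BAG5 and BAG3 with opposite signs. In a comparison of replicates 1 and 2 alone, chosen after seeing the data, 2 members rose and 4 fell, and 5 of the 8 calls were shared. Over all 24016 probe sets, 1016 rose and 1155 fell in that comparison.

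Of the 8 calls, only that of BAG5 held without each array in turn, and the others were lost in most of these fits. DNAJC12, DNAJA1, DNAJA4, DNAJC27, BAG3, HSPA9 and CACYBP all lost their call without large-follicle replicate 1 or 2 and without small-follicle replicate 1 or 2. Without large-follicle replicate 3 the calls of DNAJA1, BAG3, HSPA9 and CACYBP were lost, and without small-follicle replicate 3 those of DNAJA4, DNAJC12, DNAJC27 and HSPA9. The differences themselves moved less over these 6 fits. They ran between -0.71 and -0.48 for BAG3, between -0.43 and -0.37 for DNAJA4, between -0.55 and -0.36 for DNAJA1, between -0.79 and -0.54 for DNAJC27, between -0.42 and -0.32 for HSPA9, between -0.59 and -0.40 for CACYBP, and between 0.43 and 0.62 for DNAJC12. With the index in the model the differences of DNAJA4 (-0.39), HSPA9 (-0.40) and DNAJC27 (-0.48) changed less than those of BAG3, CACYBP and DNAJA1, although none of these calls held.

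**Figure D5:**
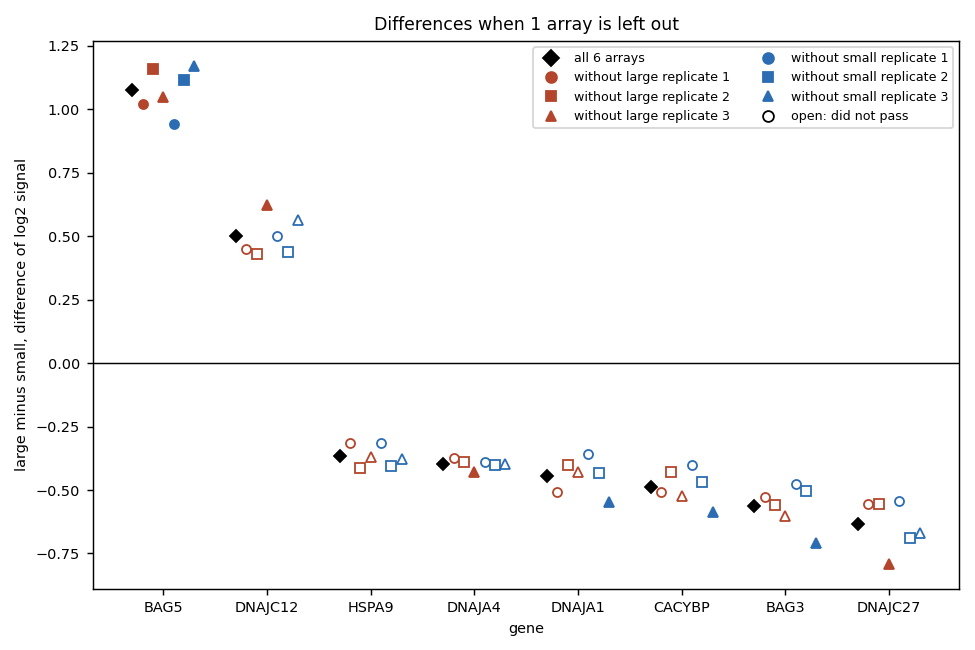
Difference of log2 signal, large minus small follicle, for the 8 genes that passed, with all 6 arrays (black diamonds) and without each array in turn (coloured markers); filled markers passed at an adjusted p under 0.05 by limma and open ones did not. The sign is the same at every marker, and BAG5 is the 1 gene whose markers are all filled.

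Genes that work with these chaperones were read from further lists, which were also chosen with earlier results known. Of 10 measured stress-inducible heat shock genes 1 rose and 7 fell, 80% against the background of 15.4% for all genes, with a median of -0.67. DNAJB1, a J-domain protein strongly induced by heat, read 8.79, 8.81 and 9.20 in large-follicle arrays, against 11.65, 11.91 and 11.60 in small-follicle arrays. That difference of -2.79 compares with -0.63 for DNAJC27, the lowest of the 45 members. HSPA8, the constitutive HSP70 that DNAJA1 and BAG3 serve, fell by 0.81, HSPH1, an exchange factor, by 1.21, and ZFAND2A, a stress-induced zinc finger protein that binds the proteasome, by 2.16. DNAJB1, HSPA8, HSPH1 and ZFAND2A kept their calls without each array in turn, and with the 3'-minus-5' index in the model DNAJB1 passed (-2.69), while HSPA8 (-0.68), HSPH1 (-0.60) and ZFAND2A (-1.56) did not.

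The partners of CCT changed in single genes. Of 13 measured genes of prefoldin and other CCT assistants 0 rose and 2 fell, 15.4%, the same share as among all genes, with a median of 0.03. PDCL, a phosducin-like protein that helps CCT fold G protein beta subunits, read 8.37, 8.03 and 8.43 in large-follicle arrays, against 9.19, 9.22 and 8.94 in small-follicle arrays, and fell by 0.84 ± 0.14 (SE, adjusted p = 0.00709 by limma). The call of PDCL held without each array (-0.93 to -0.72) but not with the 3'-minus-5' index in the model (-0.51). PDCD5, a CCT-binding protein, fell by 0.35, a call lost without any 1 of the 6 arrays (-0.39 to -0.31). Of 10 measured actin and tubulin genes, clients of CCT or related to its clients, 0 passed by limma, against 15.4% of all genes. At an unadjusted p under 0.05, 1 was higher and 2 lower, and the median was 0.07.

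Of 16 further genes that act with HSP90, 1 rose and 0 fell (6.25%, against 15.4% of all genes), with a median of 0.005. CDC37L1, a relative of the kinase adaptor CDC37, read 9.44, 9.53 and 9.25 in large-follicle arrays, against 8.50, 8.55 and 8.68 in small-follicle arrays, and rose by 0.83 ± 0.11 (SE, adjusted p = 0.00325 by limma). The call of CDC37L1 held without each array and not with the 3'-minus-5' index (0.66). CDC37 itself, the adaptor that loads kinases onto HSP90, differed by -0.07 and did not pass. Of 8 mitochondrial chaperones 1 passed (12.5%, against 15.4% of all genes). It was HSPD1, the chaperonin of the matrix, which fell by 0.45. That call was lost without large-follicle replicate 1 (-0.45, adjusted p = 0.0605) or 2 (-0.44, adjusted p = 0.0537) and small-follicle replicate 1 (-0.44, adjusted p = 0.0535) or 2 (-0.41, adjusted p = 0.0734), all by limma. Of 9 cytosolic HSP70 partners 2 fell and 0 rose (22.2%, against 15.4% of all genes). These were HSPA8 and HSPH1, which the heat shock list also holds. Of 9 genes of the HSP70 system of the endoplasmic reticulum 0 passed by limma, against 15.4% of all genes. At an unadjusted p under 0.05, 1 was higher and 2 were lower.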

How the data were processed

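The authors deposited 1 log2 value per probe set and array, made with RMA according to the submitters' processing notes, which name neither software nor settings. RMA summarises probes and gives no detection call, so dim probe sets stay in. The table has 24128 probe sets, of which 112 are controls and were not tested. Of the other 24016, 13292 carry 1 symbol, 86 several and 10638 none. All 45 members matched RefSeq by gene identifier.

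For large minus small, lmFit and eBayes of limma 3.58.1 (R 4.3.3) were run without a block, 2-sided, and p-values were adjusted by Benjamini-Hochberg over all 24016 probe sets at 0.05. Intervals are at 95%. The procedure was tested on simulated data. Named were all members that passed, all CCT, BAG, HSF, HSP70, HSP90 and co-chaperone members, DNAJ members with the 3 highest means per class or with another probe set that passed, and at most 4 genes that passed per further list. Members, lists and rules were chosen with earlier results of these data known. Background correction could not be varied, since probe-level values were not used here. The alternatives were scaling, filters, weights, prior, threshold, probe set choice, the index covariate and left-out arrays. Plots used matplotlib 3.10.9 (python 3.11.15).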

Additional observations from a re-analysis of the deposited data

How the results depend on the processing

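Over scaling, filters, weights, prior and probe set choice the members that fell numbered 5 to 10 (6 as reported, 10 with array weights) and those that rose 0 to 3 (2 as reported, 1 with cyclic loess, and 0 among probe sets above the median, where BAG5 and DNAJC12 were not tested). At a threshold of 0.01, 1 member rose and 0 fell by limma (3 and 11 at an unadjusted p under 0.05), and over all probe sets 528 rose and 535 fell, against 1374 and 1720 as reported. At an unadjusted p under 0.05, 1332 of all 9155 genes were higher and 1525 lower in the fit as reported. Such unadjusted counts over all genes are not given for the other fits. With the 3'-minus-5' index in the model 0 and 0 members passed by limma (1 and 3 unadjusted), and 99 and 116 probe sets. No pairing by replicate number was evident. Deviations from the group means correlated at -0.002, -0.05 and -0.34 between arrays of equal number, against -0.28 to 0.32 between other pairs. Not every array correlated best with its own number. With so few arrays these values cannot show whether the arrays were paired. With the replicate number as a block 1 member rose and 0 fell (5 and 12 unadjusted), and 930 probe sets rose and 1034 fell. Leaving out 1 array gave 1 to 2 members that rose and 0 to 5 that fell, 787 to 1142 probe sets that rose and 828 to 1337 that fell, and an index difference of -0.63 to -0.37. No call of a member turned its sign under any alternative run. The low number of arrays, and for DNAJC6 a signal near the bottom of the range, limit what could be detected, and the cause of the lost calls was not tested.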
